A study of Mus musculus with 4 samples.

Results

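The VEGF ligands and receptors were followed in tumour endothelial cells 48 hours after an antibody against CD93 or a control IgG. The 9 genes were chosen by name: the receptor genes Kdr, Flt1 and Flt4, the neuropilin genes Nrp1 and Nrp2, and the ligand genes Vegfa, Vegfb, Vegfc and Pgf. All 9 were found among the 55367 gene names of the count table, and all 9 were among the 16945 genes with enough reads to be tested. The endothelial cells were sorted as CD31-positive and CD45-negative from subcutaneous KPC tumours, a mouse pancreatic cancer line, in C57BL/6 mice. One group of mice had received an anti-CD93 antibody (2 libraries) and the other a control rat IgG (2 libraries), both by intraperitoneal injection, and every mouse carried the same kind of tumour. Whether the libraries came from separate mice or pools is not given in the labels, and the p-values therefore cover the spread among the 4 libraries, which may be technical.

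VEGF-A, the product of Vegfa, is the main growth signal of blood vessels, and it acts through VEGFR2, the kinase receptor encoded by Kdr. VEGFR1, encoded by Flt1, binds VEGF-A more tightly but signals weakly, and its soluble form traps the ligand; PlGF (Pgf) and VEGF-B (Vegfb) also bind it. VEGFR3, encoded by Flt4, binds VEGF-C (Vegfc) and serves lymphatic vessels and sprouting blood vessels, while the neuropilins are co-receptors that also bind class 3 semaphorins. CD93 is a transmembrane receptor of endothelial cells, and the level of its own gene is given as a description. The antibody is directed against the protein, so this RNA level is no check on the groups or the treatment. Cd93 was at 1716 and 1514 CPM in anti-CD93 replicates 1 and 2. In control IgG replicates 1 and 2 it was at 1530 and 1759 CPM. These ranges overlapped. CPM here are read counts per 1000000 reads of the tested genes, with library totals adjusted by TMM.

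Anti-CD93 replicates 1 and 2 held 17813993 and 13808077 assigned reads, and control IgG replicates 1 and 2 held 12264231 and 9364294. Both anti-CD93 libraries were thus deeper than both controls. Control IgG replicate 2 was unlike the other 3. It had the fewest reads but had reads on the most genes, 27718 against 23796 to 25430 in the others. Its log2 CPM correlated with theirs across genes at 0.969 to 0.971, against 0.989 to 0.992 between the others (genes are not independent replicates). The summed level of 12 endothelial markers was 8512 and 8795 CPM of all assigned reads in the anti-CD93 libraries. It was 8825 and 10891 CPM in the control IgG libraries, with none of the markers at 0. The groups did not overlap, but only control IgG replicate 2 lay well apart from the others. Markers of other cells were present too: 9 tumour epithelial markers summed to 1687 to 2464 CPM, 12 fibroblast and pericyte markers to 2205 to 3231 CPM, 6 lymphatic markers to 175 to 284 CPM and 12 macrophage and leukocyte markers to 32.6 to 59.8 CPM. The anti-CD93 and control IgG ranges of these 4 sums overlapped. No marker was at 0 in all 4 libraries, and in such bulk samples fewer cells of a type and less RNA per cell cannot be told apart.

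No VEGF gene passed the test between anti-CD93 and control IgG. With all 4 libraries 0 of the 9 had an adjusted p under 0.05 in edgeR's quasi-likelihood test, as did 0% of the 16945 genes tested. At an unadjusted p under 0.05 there were again 0 of the 9 in this fit, against 4.49% of all genes (1.99% on the higher side). Other fits of all 4 libraries also called 0 of the 9 at the adjusted threshold, where 0.144% of all genes were called with no filter on low counts, 0.015% by DESeq2 and 0.0826% with the replicate number as a block. In some of these fits Vegfa had an unadjusted p under 0.05. It was 0.0169 in edgeR with no filter (5.57% of all genes were under 0.05) and 0.0291 in DESeq2 (2.38%). It was 0.0403 in limma-voom (4.76%) and 0.0470 in edgeR with the replicate block (6.2%). Leaving out anti-CD93 replicate 2 gave 0 of the 9 as well, against 0.0059% of all genes. The mean of anti-CD93 was the higher one for 7 genes and the lower one for 2, and the median log2 fold change of the 9 was 0.026, against -0.0092 over all genes tested. Vegfa was the 1 gene whose anti-CD93 libraries both lay above both control libraries (20.1% of all genes did so), and Flt4 was the 1 gene whose anti-CD93 libraries both lay below (19.7% of all genes). The other 7 overlapped. For 6 of the 9 genes the 95% interval stayed inside a change of 1.5-fold in either direction.

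**Figure D1:**
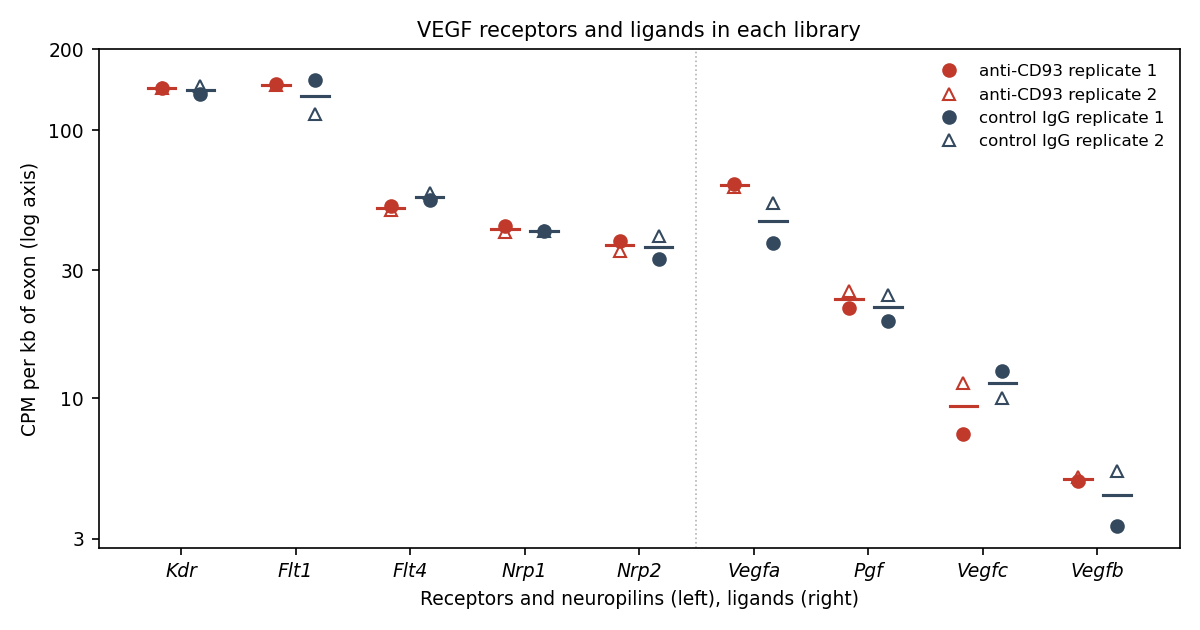
Level of each VEGF gene in each library, as CPM per kb of exon on a log axis, with a bar at the mean of each group (n = 2 libraries each). Kdr and Flt1 lie highest in both groups and Vegfb lowest. Vegfa is the only gene shown with both anti-CD93 libraries (63.1 and 61.1) above both control IgG libraries (38.0 and 53.6). Of all genes tested, 20.1% lay so.

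The receptors are given first. Kdr lies on the minus strand of chromosome 5 (75932827 to 75978458, GRCm38) and Flt1 on the same strand of the same chromosome (147561604 to 147726011). The 250 bases before their start sites are shown because these receptors had the highest levels of the family. Those of Vegfa, the ligand with the largest difference, are shown with them. Capitals mark GCGTG, a core of the hypoxia response element, on either strand (CACGC is its reverse complement). The sequences are from RefSeq, GRCm38.p6, minus strand, at chr5:75978456-75978705, chr5:147726012-147726261 and chr17:46032378-46032627.
Kdr: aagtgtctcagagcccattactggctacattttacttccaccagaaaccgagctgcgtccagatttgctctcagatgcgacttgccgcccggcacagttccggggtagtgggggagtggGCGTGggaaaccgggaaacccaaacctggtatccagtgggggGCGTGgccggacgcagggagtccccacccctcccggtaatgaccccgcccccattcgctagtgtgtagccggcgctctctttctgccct
Flt1: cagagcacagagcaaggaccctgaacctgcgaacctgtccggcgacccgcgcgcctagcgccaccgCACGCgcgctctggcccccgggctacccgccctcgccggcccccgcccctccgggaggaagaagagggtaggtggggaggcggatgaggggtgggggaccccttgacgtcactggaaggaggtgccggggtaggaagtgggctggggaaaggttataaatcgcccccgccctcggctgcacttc
Vegfa: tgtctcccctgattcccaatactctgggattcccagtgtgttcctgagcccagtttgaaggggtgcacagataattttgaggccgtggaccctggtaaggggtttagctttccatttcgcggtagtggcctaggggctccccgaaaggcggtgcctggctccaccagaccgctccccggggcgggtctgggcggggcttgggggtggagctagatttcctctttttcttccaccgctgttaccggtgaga

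Kdr held 2 matches in this stretch, Flt1 held 1 and Vegfa 0. The search covered ACGTG and GCGTG on both strands, and 43.8% of 32851 promoter windows of 300 bases (250 before to 50 after a start site) held at least 1 of them. All 9 genes had a promoter in the table, 11 windows in all, because Vegfa and Pgf have a pair each. Of these, 7 windows held a match, including an inner start site of Vegfa with 1 match to each motif. A match is a description of the letters and no evidence of binding, and its absence says only that these letters are not in the window.

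Kdr had nearly the same level in all 4 libraries. It was at 1290.4 and 1296 CPM in anti-CD93 replicates 1 and 2 and at 1230.2 and 1312 CPM in control IgG replicates 1 and 2. The anti-CD93 libraries lay between the control libraries. The log2 fold change was 0.025 (SE 0.16, 95% interval -0.35 to 0.40; adjusted p = 0.976 by edgeR), which leaves room for a level from 0.784 to 1.32 times that of control IgG. With 12255 to 22841 reads per library, Kdr took rank 175 of 16945 genes by CPM per kb.

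Flt1 differed more between the control libraries than between the groups. It was at 1999 and 1984 CPM in anti-CD93 replicates 1 and 2 and at 2072 and 1556 CPM in control IgG replicates 1 and 2. Control IgG replicate 2 was the low library, and the other 3 lay within a narrow range. The log2 fold change was 0.13 (SE 0.19, 95% interval -0.31 to 0.58; adjusted p = 0.877 by edgeR). It became 0.36 when control IgG replicate 1 was dropped (edgeR adjusted p = 0.0180), in a fit that called 26.8% of all genes, and -0.059 when control IgG replicate 2 was dropped (edgeR adjusted p = 0.915). Over the 14 alternatives its adjusted p ran from 0.0180 to 1. In fits that leave out a control library the other control stands alone and is taken to vary as the anti-CD93 libraries do. Counting was by gene, so soluble and membrane-bound Flt1 transcripts, among the 6 annotated in GENCODE vM21, are summed.

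Flt4 (plus strand of chromosome 11, 49609263 to 49652739) was the receptor gene with the lower level in both anti-CD93 libraries. It was at 429.9 and 414 CPM in anti-CD93 replicates 1 and 2 and at 451 and 479 CPM in control IgG replicates 1 and 2. The groups did not overlap, but the gap was small beside the fit's error: the log2 fold change was -0.14 (SE 0.16, 95% interval -0.52 to 0.24; adjusted p = 0.856 by edgeR). Among the endothelial markers measured beside it, Pecam1 (CD31) was also lower in both anti-CD93 libraries, at 1661 and 1663 CPM against 1685 and 1872 CPM in the control IgG libraries, and all 12 endothelial markers had a lower mean with anti-CD93. The part of these markers in the Flt4 value was not tested.

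The neuropilins showed the smallest differences of the family beside Kdr. Nrp1 (plus strand of chromosome 8, 128358604 to 128503363) was at 429.7 and 408 CPM in anti-CD93 replicates 1 and 2 and at 412 and 411 CPM in control IgG replicates 1 and 2. Nrp2 (plus strand of chromosome 1, 62703285 to 62818695) was at 458 and 421 CPM in anti-CD93 replicates 1 and 2 and at 391 and 478 CPM in control IgG replicates 1 and 2. Both overlapped between the groups, with log2 fold changes of 0.026 (SE 0.16, 95% interval -0.35 to 0.40) for Nrp1 and 0.017 (SE 0.18, 95% interval -0.40 to 0.43) for Nrp2. Their adjusted p values were 0.976 and 0.984 by edgeR. Nrp1 is the only one of the 9 genes that shares exon bases with another counted gene, the microRNA gene Mir1903 on the same strand, and the 80 shared bases are 0.818% of its exon length.

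Among the ligands, Vegfa (minus strand of chromosome 17, 46016993 to 46032369) had the largest difference. It was at 271 and 262 CPM in anti-CD93 replicates 1 and 2 and at 163 and 229.8 CPM in control IgG replicates 1 and 2. Both anti-CD93 libraries lay above both controls, and the controls differed from each other by more than the nearer control differed from the anti-CD93 libraries. The log2 fold change was 0.44 (SE 0.21, 95% interval -0.03 to 0.91; unadjusted p = 0.0647 and adjusted p = 0.812 by edgeR), or 1.36-fold with an interval of 0.977 to 1.89. It became 0.71 when control IgG replicate 2 was dropped (edgeR adjusted p = 0.0244, in a fit that called 0.0767% of all genes) and 0.21 when control IgG replicate 1 was dropped (edgeR adjusted p = 0.133). It was positive in all 14 alternative fits, whose adjusted p ran from 0.0244 to 1. With all 4 libraries its unadjusted p by edgeR ran from 0.0169 with no filter on low counts to 0.0691 with no scaling. Gene counts do not separate the splice forms of Vegfa, of which GENCODE vM21 lists 13 transcripts, 8 of them coding.

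Vegfa is also made by cells other than endothelium, so markers of such cells are given beside it. The 9 tumour epithelial markers summed to 2395 and 2002 CPM of all assigned reads in anti-CD93 replicates 1 and 2 and to 1687 and 2464 CPM in control IgG replicates 1 and 2, so the sums overlapped, and 5 had a higher and 4 a lower mean with anti-CD93. Of these markers, Epcam, Cdh1 and Muc1 lay higher in both anti-CD93 libraries than in both controls, as did 20.1% of all genes. The other markers of this list overlapped. Cdh1 (E-cadherin) was at 351 and 290.0 CPM with anti-CD93 and 216 and 210.4 CPM with control IgG, while Krt8 (a keratin) overlapped at 855 and 712 CPM with anti-CD93 and 617 and 937 CPM with control IgG. The macrophage and leukocyte sum was 56.1 and 52.0 CPM with anti-CD93 and 32.6 and 59.8 CPM with control IgG. Control IgG replicate 1, the library lowest in Vegfa, was the lowest in both sums. Control IgG replicate 2 was the highest in both sums but lay below both anti-CD93 libraries in Vegfa. The 12 fibroblast and pericyte markers summed to 2205 and 2527 CPM with anti-CD93 and 2518 and 3231 CPM with control IgG. That sum was lowest in anti-CD93 replicate 1, the library highest in Vegfa. The part of these cells in the Vegfa value was not tested.

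Pgf (minus strand of chromosome 12, 85166635 to 85177790) was at 62.8 and 73.0 CPM in anti-CD93 replicates 1 and 2 and at 56.1 and 70.7 CPM in control IgG replicates 1 and 2. The groups overlapped, with a log2 fold change of 0.10 (SE 0.20, 95% interval -0.36 to 0.56; adjusted p = 0.916 by edgeR). Its sign turned, to -0.059, when control IgG replicate 1 was dropped. Vegfb (minus strand of chromosome 19, 6982473 to 6987651) was at 7.91 and 8.14 CPM in anti-CD93 replicates 1 and 2 and at 5.38 and 8.56 CPM in control IgG replicates 1 and 2. These ranges overlapped. It had 66 to 140 reads per library, and mates were counted singly, so a fragment could give 2 counts. Counting error alone then gives a coefficient of variation of up to 17.4% in the library with the fewest reads. It would be 12.3% if each read were a fragment of its own. Its log2 fold change of 0.21 had the widest interval of the family (SE 0.34, 95% interval -0.57 to 0.99; adjusted p = 0.894 by edgeR).

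Vegfc (plus strand of chromosome 8, 54077606 to 54187096) was the ligand with the lower mean after anti-CD93. It was at 18.0 and 27.9 CPM in anti-CD93 replicates 1 and 2 and at 31.1 and 24.6 CPM in control IgG replicates 1 and 2. The groups overlapped, since anti-CD93 replicate 1 was lowest but anti-CD93 replicate 2 lay between the controls. The log2 fold change was -0.28 (SE 0.27, 95% interval -0.91 to 0.34; adjusted p = 0.831 by edgeR), and without anti-CD93 replicate 1 it was 0.0078. The 6 lymphatic markers summed to 175 and 232 CPM in anti-CD93 replicates 1 and 2 and to 284 and 189 CPM in control IgG replicates 1 and 2. The 4 libraries thus stood in the same order for this sum as for Vegfc, and the fitted log2 fold change was below 0 for all 5 of these markers with enough reads to be tested (-0.0033 for Lyve1, whose group means were 43.6 CPM with anti-CD93 and 43.5 CPM with control IgG). Their part in the Vegfc value was not tested.

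**Figure D2:**
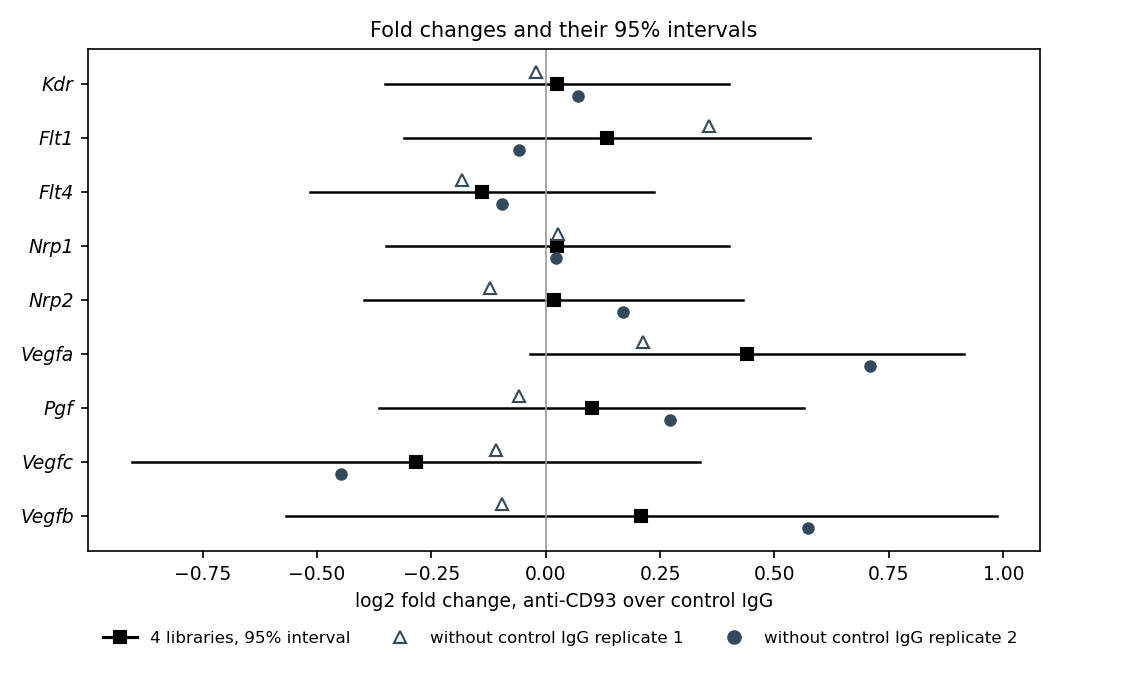
Log2 fold change (anti-CD93 over control IgG) of each VEGF gene from all 4 libraries with its 95% interval (squares and lines), and the value without control IgG replicate 1 (triangles) or 2 (circles). Every interval includes 0, and the value depends on the control library left out (replicate 1 or 2): it is 0.36 or -0.059 for Flt1, 0.21 or 0.71 for Vegfa and -0.095 or 0.57 for Vegfb.

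For Kdr, Flt1, Flt4, Nrp2, Vegfa, Vegfb and Pgf the control libraries differed more from each other than the anti-CD93 libraries did. The coefficient of variation of CPM was 0.518% between the anti-CD93 libraries and 20.1% between the controls for Flt1. In the same order it was 2.31% and 24.2% for Vegfa, 2.01% and 32.2% for Vegfb, and 0.315% and 4.55% for Kdr. It was 2.63% and 4.33% for Flt4, 6.03% and 14.2% for Nrp2, and 10.6% and 16.2% for Pgf. Nrp1 and Vegfc showed the opposite order, with 3.74% between the anti-CD93 libraries and 0.175% between the controls for Nrp1, and 30.4% and 16.4% for Vegfc. The anti-CD93 values for Kdr, Flt1 and Vegfb and the control value for Nrp1 lay below the counting error. That error, with each read taken as a fragment, was 0.903%, 0.83%, 12.3% and 1.61% in the library with the fewest reads. A coefficient from 2 libraries is itself poorly known, and these differences in spread were not tested.

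Between genes, levels are compared as CPM per kb of exon, which divides by the exon length counted for the gene (1605 bases for Vegfb to 13504 for Flt1). Flt1 and Kdr stood highest, at 147 ± 0.764 and 143 ± 0.450 with anti-CD93 and at 134 ± 27.0 and 141 ± 6.40 with control IgG (SD, n = 2 each). With anti-CD93 the order went on through Vegfa, Flt4, Nrp1, Nrp2, Pgf, Vegfc and Vegfb, and no neighbours in it overlapped. With control IgG, Flt1 and Kdr overlapped, Flt4 (56.5 ± 2.45) stood above Vegfa (45.8 ± 11.1), and Vegfa overlapped with Nrp1 (42.0 ± 0.0736). Vegfa stood above Flt4 with anti-CD93 (62.1 ± 1.44 and 51.3 ± 1.35), a change of order that was not tested. At the low end, Vegfc was at 9.38 ± 2.85 with anti-CD93 and 11.4 ± 1.86 with control IgG, and Vegfb was at 4.93 and 5.07 with anti-CD93 and 3.35 and 5.34 with control IgG. A gene with long exons used in few transcripts has its level per kb understated.

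Within the receptor tyrosine kinases, Kdr and Flt1 shared most of the summed level per kb about evenly. Kdr made up 41.7% and 42.1% of it in the anti-CD93 libraries and 39.6% and 45.6% in the control IgG libraries, and Flt1 made up 43.1% and 43.1% with anti-CD93 and 44.6% and 36.2% with control IgG. Flt4 took 15.2% and 14.8% with anti-CD93 and 15.9% and 18.3% with control IgG. The ligand pool was led by Vegfa, at 65.1% and 59.5% with anti-CD93 and 51.8% and 57.5% with control IgG, and these did not overlap. Pgf took 22.3% and 24.5% of the ligand pool with anti-CD93, below its 26.4% and 26.1% with control IgG. Its own level overlapped between the groups and had the higher mean with anti-CD93, so the smaller share reflects the rest of the pool. Vegfc took 7.58% and 11.1% with anti-CD93 and 17.3% and 10.8% with control IgG. Vegfb stayed between 4.57% and 5.72% in all 4 libraries.

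**Figure D3:**
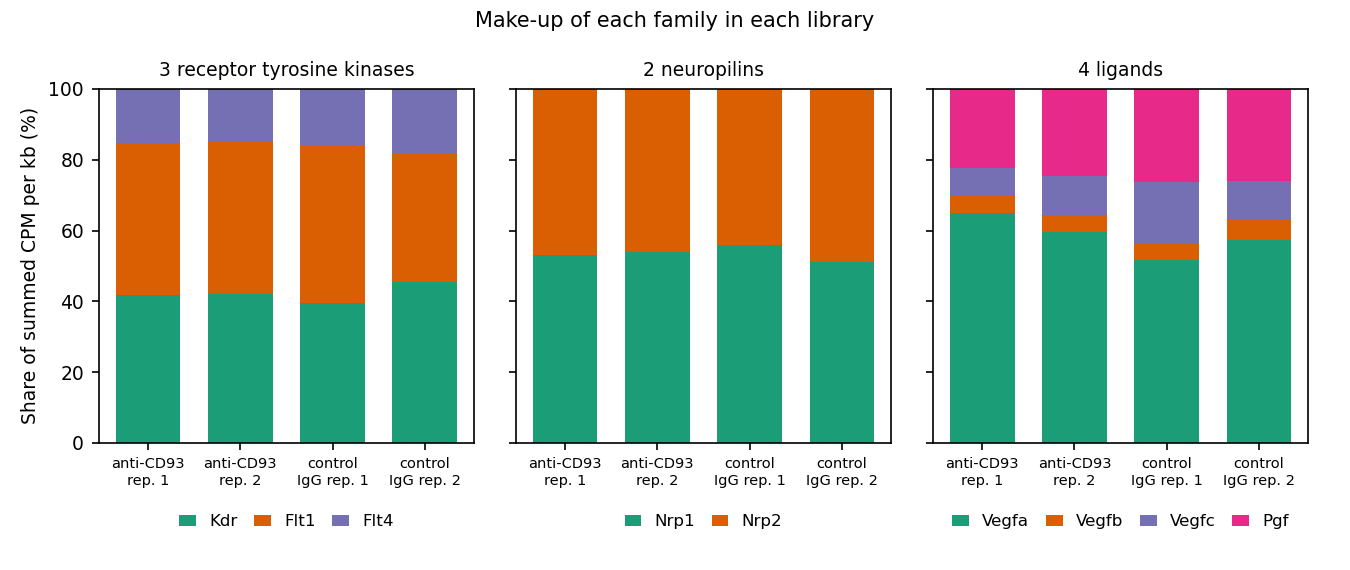
Share of each gene in the summed CPM per kb of the receptor tyrosine kinases, the neuropilins and the ligands, with 1 bar per library, anti-CD93 on the left of each panel. Vegfa takes 65.1% and 59.5% of the ligand pool with anti-CD93 and 51.8% and 57.5% with control IgG, while control IgG replicate 2 has the smallest share of Flt1 (36.2%).

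A ratio of levels within a library does not depend on how libraries are scaled, and 6 ratios were tested by an exact permutation test over the 4 libraries, two-sided. With 2 libraries against 2 this test cannot give a p below 0.333. Flt1 over Kdr was 1.04 and 1.02 with anti-CD93 and 1.13 and 0.793 with control IgG (exact p = 1). Nrp1 over Kdr was 0.307 and 0.290 with anti-CD93 and 0.309 and 0.289 with control IgG, and Nrp2 over Nrp1 was 0.881 and 0.853 with anti-CD93 and 0.784 and 0.962 with control IgG. These 3 ratios overlapped between the groups.

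The ratios with Vegfa on top did not overlap. Vegfa over Pgf was 2.92 and 2.43 with anti-CD93 and 1.96 and 2.20 with control IgG, a log2 difference of 0.36. Vegfa over Vegfb was 12.8 and 12.1 with anti-CD93 and 11.3 and 10.1 with control IgG, a log2 difference of 0.22. This ratio rests on 66 to 140 Vegfb reads per library, with a counting error of up to 17.4% in the library with the fewest. Both ratios had the smallest p the test allows (exact p = 0.333, or 0.999 adjusted over the 6 ratios). Summed ligands over summed receptors was 0.228 and 0.246 with anti-CD93 and 0.175 and 0.233 with control IgG, and these overlapped (exact p = 0.667). With 1 library left out the log2 difference ran from 0.22 (without anti-CD93 replicate 1) to 0.49 for Vegfa over Pgf and from 0.14 (without control IgG replicate 2) to 0.31 for Vegfa over Vegfb. That of summed ligands over summed receptors, 0.23 with all libraries, was 0.024 without control IgG replicate 1 and 0.44 without control IgG replicate 2.

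The rest of the pathway was read from 6 lists of 105 genes other than the 9, of which 104 were tested. With all 4 libraries none passed edgeR's adjusted threshold in either direction (0% of all genes did). The fitted log2 fold change was above 0 for 57 and below 0 for 47, with a median of 0.033. In 3 other fits of all 4 libraries 1 of the 104 was called, the hypoxia target Bnip3: its adjusted p was 2.39e-04 in edgeR with no filter on low counts, 0.0145 in DESeq2 and 0.00429 in edgeR with the replicate block. When control IgG replicate 2 was dropped Bnip3 was again the 1 gene called (edgeR adjusted p = 0.0130), and when control IgG replicate 1 was dropped 46 of the 104 were called, in the fit that called 26.8% of all genes. In each list the 3 genes with the highest level per kb are named, whatever their change. The counts that follow are of fitted log2 fold changes above (higher) or below 0 (lower). The values are in CPM, as group means ± SD (n = 2 each) unless both libraries are given, and each adjusted p was 0.812 or above by edgeR.

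Of 17 cell-surface and trafficking partners of the receptors, 7 were higher and 10 lower, with a median of -0.046. Cdh5 (VE-cadherin, a partner of VEGFR2 at junctions) averaged 2513 ± 67.7 with anti-CD93 and 2906 ± 559 with control IgG. Plxnd1, a semaphorin receptor, averaged 1611 ± 14.4 with anti-CD93 and 2249 ± 674 with control IgG, and its groups did not overlap, control IgG replicate 2 being the highest. Ctnnb1 (beta-catenin) averaged 725 ± 15.5 and 760.2 ± 56.3. Of the 7 class 3 semaphorins, ligands of neuropilins and plexins, 4 were higher and 3 lower, with a median of 0.00058, which ran from -0.18 to 0.40 with 1 library left out. The count rests on Sema3b, which stood at the median and had group means of 3.67 with anti-CD93 and 3.71 with control IgG. Sema3f averaged 462 ± 28.9 with anti-CD93 and 564 ± 56.5 with control IgG without overlap, Sema3g 61.7 ± 20.9 and 76.2 ± 7.35, and Sema3a 47.7 ± 7.52 and 40.9 ± 23.7.

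Of 41 genes that carry the signal below VEGFR2, 24 were higher and 17 lower, with a median of 0.080, which ran from 0.015 to 0.049 with 1 library left out. Hspb1, a small heat shock protein that is phosphorylated downstream of p38, averaged 145 ± 6.94 with anti-CD93 and 198 ± 34.7 with control IgG without overlap. The Src family kinase gene Fyn averaged 340.2 ± 25.2 with anti-CD93 and 372 ± 15.2 with control IgG, also without overlap. The small GTPase gene Rac1 averaged 269.8 ± 3.91 and 268 ± 4.46, which overlapped. When control IgG replicate 1 was dropped, which leaves 1 control library, the median was 0.015 for these genes, against 0.0010 over all genes. In the same fit it was -0.069 for the partners and 0.40 for the semaphorins. For the VEGF-induced genes it was -0.31 and for the hypoxia targets 0.35.

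Of 19 genes induced by VEGF in endothelial cells, 5 were higher and 14 lower, with a median of -0.21 against -0.0092 over all genes. The median was -0.11 when anti-CD93 replicate 1 was dropped, and -0.31 when either anti-CD93 replicate 2 or control IgG replicate 1 was dropped. The 12 endothelial markers were all lower too, with a median of -0.18, and their part in this list's values was not tested. The most abundant did not move as one. Dll4, a Notch ligand, was at 422 and 459 with anti-CD93 and at 517 and 546 with control IgG without overlap, and Esm1 (endocan, a tip cell product) averaged 301 ± 71.4 with anti-CD93 and 204 ± 44.5 with control IgG, also without overlap but on the higher side. The transcription factor gene Ets1 overlapped at 893 ± 60.0 and 871 ± 79.4. Of 18 textbook targets of the hypoxia-inducible factors, the class that Vegfa belongs to, 16 were higher and 2 lower, with a median of 0.30 (0.21 without control IgG replicate 2). Their 3 most abundant genes overlapped between the groups: Ldha (lactate dehydrogenase) averaged 349 ± 7.12 with anti-CD93 and 324 ± 34.4 with control IgG, Aldoa (aldolase) 345 ± 4.45 and 369.5 ± 105, and Ddit4 135 ± 2.56 and 134 ± 7.28. Slc2a1, Pgk1, Adm, Pdk1, Kdm3a, P4ha1, Bnip3, Egln3 and Hk2 had both anti-CD93 libraries above both control libraries, as did 20.1% of all genes. The other members of the list overlapped. Values are given for Bnip3, Egln3 and Hk2, picked here after they were seen. Bnip3 (a mitophagy receptor) was at 38.4 and 40.9 with anti-CD93 and at 15.9 and 14.9 with control IgG, a log2 fold change of 1.36. The oxygen sensor gene Egln3 was at 74.2 and 83.3 with anti-CD93 and at 53.5 and 40.8 with control IgG, and the hexokinase gene Hk2 at 135 and 141 with anti-CD93 and at 89.2 and 93.4 with control IgG. Their unadjusted p by edgeR was 1.67e-04, 0.00726 and 0.00750 (adjusted p = 0.812 for each). The Vegfa value of 0.44 stood above that list's median.

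Of the 3 remaining genes, Ccbe1, which helps to process VEGF-C, averaged 7.79 ± 0.330 with anti-CD93 and 7.21 ± 1.31 with control IgG. Vegfd, the ligand closest to Vegfc, was near the limit of detection at 8 to 16 reads per library, with means of 0.743 ± 0.228 and 1.02 ± 0.0648. Adamts3, a protease that cleaves VEGF-C, had too few reads to be tested.

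**Figure D4:**
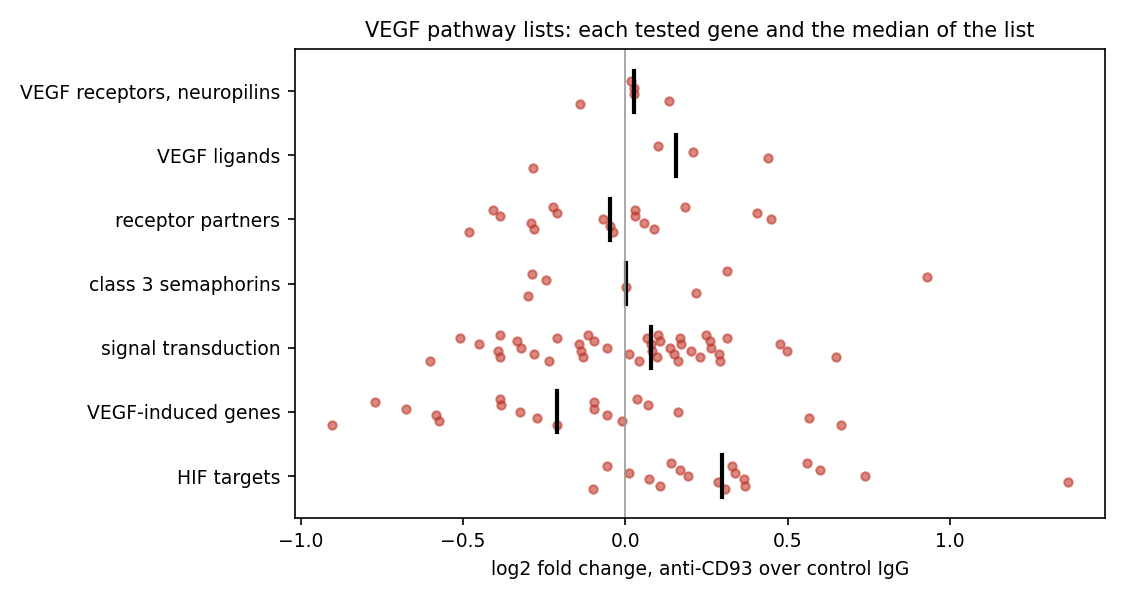
Log2 fold change (anti-CD93 over control IgG) of each tested gene in the receptor, ligand and pathway lists, with a bar at the median of the list. The receptors lie near 0, the ligands spread from -0.28 (Vegfc) to 0.44 (Vegfa), and the medians of the VEGF-induced genes (-0.21) and the HIF targets (0.30) lie on opposite sides of 0; no gene shown passed the adjusted threshold.

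The genes whose pattern over the 4 libraries was most like that of Kdr, Flt1 and Vegfa were found by Euclidean distance of centred log2 CPM among 6545 genes with a mean of at least 20 CPM. For Kdr they were Id3, Zfp609 and Psmd1 (distances 0.0141 to 0.0196), and for Flt1 they were Stard4, Rbm22 and Rars (0.0121 to 0.0157). For Vegfa they were farther off: Gys1 at 0.0747, Mtcl1 at 0.0921 and Wwc1 at 0.102. Gys1, the muscle-type glycogen synthase, was at 34.7 and 31.0 CPM in anti-CD93 replicates 1 and 2 and at 19.5 and 28.3 CPM in control IgG replicates 1 and 2. Like Vegfa it was lowest in control IgG replicate 1. Within the family, the closest pair was Kdr and Nrp1 at 0.0896 and the farthest Vegfa and Vegfc at 1.03. With 4 libraries many genes share any given pattern, so these are descriptions.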

How the data were processed

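Per the labels' protocols, libraries came from total RNA (a stranded kit for low input) and were read from both ends. STAR 2.7.5b and DESeq2 1.28.1 are named in the submitters' processing notes. Counting by gene name with featureCounts 2.0.1 on GENCODE vM25 (GRCm38) was done by the authors, per the file headers. The deposited table holds raw counts, and the exon length used for CPM per kb is the one it gives. The recorded command has no paired-end and no strand option, so mates were counted singly and strand was ignored; none of the 9 genes shares exon bases with a gene on the opposite strand. Another deposited table, called normalized, was identical to it in every count (0 of 221468 cells differed) and was not used further.

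With edgeR 4.0.16 in R 4.3.3, low genes were removed (filterByExpr, minimum count 10), libraries scaled by TMM, and groups compared by the robust quasi-likelihood test with no covariate and Benjamini-Hochberg adjustment over all 16945 genes and a threshold of 0.05. The SE is the absolute log2 fold change over the root of F, and 95% intervals use the fit's t distribution. CPM have no prior count, except in distances and correlations (log2 of CPM plus 2).

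The 9 members, the lists and the marker genes were chosen with earlier results of these data known. Named by rule were the 9 genes, Cd93, the 3 genes of each pathway list with the highest mean CPM per kb, any list gene past the test, and the 3 nearest patterns to Kdr, Flt1 and Vegfa among genes of at least 20 CPM, without predicted genes. Alternatives were other scalings, no filter or a minimum count of 50, DESeq2 1.42.0, limma-voom (limma 3.58.1), the non-robust fit, halved counts, a block for the replicate number, each library left out (on the same genes), a threshold of 0.1 and, for ratios, raw counts.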

Additional observations from a re-analysis of the deposited data

How the results depend on the processing

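The number of VEGF genes past the threshold was 0 in all 4-library fits and at a threshold of 0.1; with 1 library left out it ran from 0 to 1, Flt1 without control IgG replicate 1 and Vegfa without control IgG replicate 2. Over all genes, 0 passed under the other scalings, a minimum count of 50, limma-voom, no robust dispersion, halved counts and a threshold of 0.1. With no filter on low counts 26 were higher and 22 lower, with DESeq2 2 and 3, and with the replicate block 11 and 3. With 1 library left out the count ran from 0 to 2386 higher and from 0 to 2163 lower, both highest without control IgG replicate 1. The replicate number gives no known pairing (the deviations of same-numbered libraries correlated at -0.031 across genes), and with it as a block Vegfa was at 0.46 (adjusted p = 0.799 by edgeR).

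Signs of the VEGF genes held in all 4-library fits, where Vegfa ran from 0.43 to 0.50. Leaving out 1 library turned the sign of Kdr (-0.021 to 0.071), Flt1 (-0.059 to 0.36), Nrp1 (-0.0052 to 0.063), Nrp2 (-0.12, and -0.037 without anti-CD93 replicate 1, to 0.17), Vegfb (-0.095 to 0.57), Vegfc (-0.63 to 0.0078) and Pgf (-0.059, and -0.012 without anti-CD93 replicate 2, to 0.27), but not of Vegfa (0.21 to 0.71) or Flt4 (-0.18 to -0.096). Of the log2 ratio differences, Flt1 over Kdr turned to -0.13 without control IgG replicate 2 (0.38 without replicate 1), Nrp1 over Kdr ran from -0.049 to 0.048, and Nrp2 over Nrp1 from -0.15 to 0.15. The causes were not tested. The other 3 ratios kept their sign. If both mates of each fragment were counted, counting error in the library with the fewest reads was 17.4% for Vegfb and at most 9.33% for the other 8 genes.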

Other observations

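Of the 104 tested pathway genes other than the 9, 13 (12.5%) had an unadjusted p under 0.05, against 4.49% of all genes; the lists were chosen with earlier results known, so this share is a description. The genes that follow were picked after their values were seen, and none passed the adjusted threshold (adjusted p = 0.812 by edgeR for each). Sema3e, a ligand of the plexin encoded by Plxnd1, was at 33.8 and 19.8 CPM in anti-CD93 replicates 1 and 2 and at 14.4 and 13.7 CPM in control IgG replicates 1 and 2. Nos3, the endothelial nitric oxide synthase, was at 124 and 155 CPM with anti-CD93 and 187 and 237 CPM with control IgG. Among the VEGF-induced genes, F3 (tissue factor) averaged 50.9 CPM with anti-CD93 and 32.1 CPM with control IgG, while Sele (E-selectin) averaged 33.7 CPM and 63.0 CPM. Of the 5 VEGF-induced genes with an unadjusted p under 0.05 by edgeR, F3 and Esm1 were higher, while Sele, Rcan1 and Nr4a1 were lower. Rcan1 was at 45.5 and 52.2 CPM with anti-CD93 and 73.1 and 93.7 CPM with control IgG. Nr4a1 was at 177 and 218 CPM with anti-CD93 and 251 and 340 CPM with control IgG.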
